A study of Caenorhabditis elegans with 4 samples.

Results

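The 10 genes described here, nlp-43, nlp-45, nlp-48, nlp-51, nlp-56, nlp-66, nlp-68, nlp-71, nlp-81 and nlp-88, belong to the neuropeptide-like protein (nlp) genes of Caenorhabditis elegans. They were taken from a list of names and are 10 of 7477 genes that could be named on the arrays, each represented by 1 probe. All 10 had a ratio on all 4 arrays, as did 2222 named genes in total. The list is thus made of the nlp genes with a named probe that the arrays measured throughout. Gonad RNA of cde-1 mutant worms (allele tm1021) was set against that of wildtype worms (strain N2), in young adults and in aged adults, on Agilent arrays of 2 colours. The cde-1 product is an enzyme that uridylates small RNAs in the germline. Each sample pooled 250 dissected gonads, and a single RNA sample per stage and genotype was hybridised on 2 arrays, once with the mutant labelled with Cy5 (the Cy5-mutant array) and once with it labelled with Cy3 (the Cy3-mutant array). Because both arrays of a stage share their RNA, they count as 1 replicate, which leaves n = 2 stages. The mutant is represented by a single allele. No named probe represented cde-1, so the targeted gene was not analysed here.

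Neuropeptide precursors are small secreted proteins. A signal peptide directs them into the secretory pathway, and proprotein convertases cut them at basic residues. The short peptides that result are stored in dense core vesicles and released to act mostly on G protein-coupled receptors. In C. elegans the precursors are mainly grouped as FMRFamide-like (flp), insulin-like (ins) and nlp genes, the last being a mixed class of most remaining precursors. They are known mainly from neurons, and from intestine, hypodermis and other secretory tissue, whereas the dissected gonad consists of germ cells, sheath and spermatheca. Among the 10, nlp-45 is known for a peptide of neurons that restrains exploratory movement. No role is given here for the others.

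The scale and direction of the ratios bear on every value. The deposited ratios were taken as log10, the convention of Agilent Feature Extraction, and converted to log2; were they log2 already, every size would be smaller by a factor of 3.32. No source used here states which genotype stands on top. The sample titles read wildtype vs cde-1 for both Cy5-mutant arrays and cde-1 vs wildtype for both Cy3-mutant arrays. They do not say whether the genotype named first is the one on top. If it is, wildtype stands on top on the Cy5-mutant arrays, which is not the reading used for the main values. The values are averaged over the dye orientations as deposited, which assumes that 1 array of each pair had its sign turned before deposit. The direction is then taken to be mutant over wildtype. The basis is that every nonzero ratio of both Cy5-mutant arrays was written in scientific notation and 0 of those of the Cy3-mutant arrays were. The arrays had thus been handled differently, but a turn of sign is not shown by this. If no array was turned, the average holds the dye effect and the genotype effect lies in the difference between the orientations; values under that reading are given after the main ones. Across the 2222 genes, as deposited, the Pearson correlation between orientations was 0.65 for young and 0.44 for aged adults; the averages of both stages gave -0.13 and their orientation differences 0.25. Genes are not independent points, and these values carry no p.

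Detection of nlp transcripts in these gonads came first. A named probe existed for 25 nlp genes, all numbered nlp-43 or higher. They are a part of the nlp genes, since 14844 of the 22562 probes had no gene name and nlp-22, for example, had no named probe. A ratio was present on all 4 arrays for 10 of them (40.0%), on 3 arrays for 4, on 2 arrays for 2, on 1 array for 3 and on none for 6. Among the 7452 other named genes, 29.7% had a ratio on all 4 arrays and 30.3% on none. By array, 16 of the 25 nlp genes had a ratio on the young Cy5-mutant array, 13 on the young Cy3-mutant array and 15 on each aged array. The difference in detection between nlp and other genes was not tested. A ratio of exactly 0 was read as a spot without a measurement. Spot brightness was not used here, so that a ratio does not by itself show how much transcript was present, and a missing one does not show absence. In pooled tissue, fewer cells of a type and less RNA per cell cannot be told apart.

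**Figure D1:**
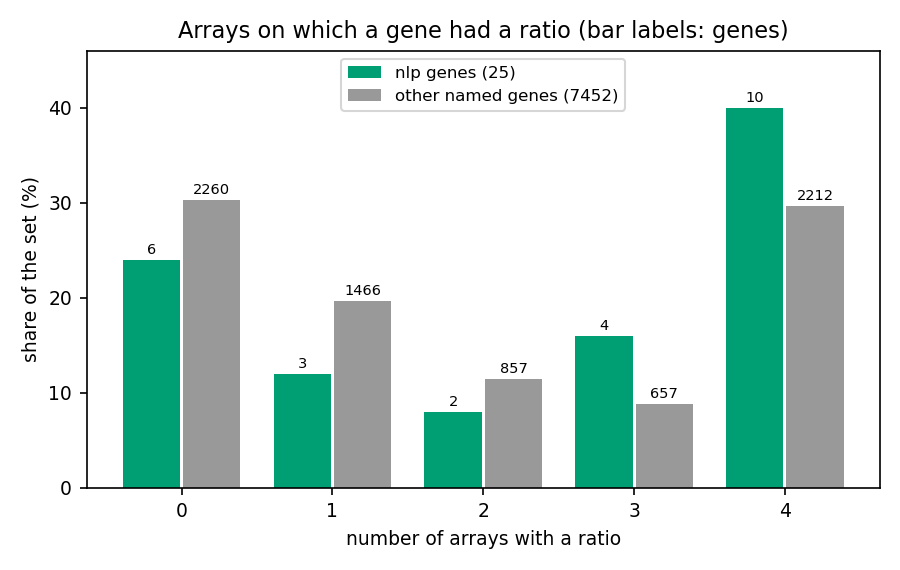
Share of the 25 nlp genes (green) and of the 7452 other named genes (grey) by the number of arrays on which the gene had a ratio; the figures on the bars are gene counts. The nlp genes stand at 40.0% for all 4 arrays, against 29.7% of other genes.

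In the average over both stages, 8 of the 10 nlp genes had a positive log2 ratio, as had 57.8% of all genes tested. Positive means higher in mutant than in wildtype gonads under the direction taken here. None of the 10 passed the test. The largest was nlp-88 at 1.21 ± 0.49 (limma SE, n = 2 stages), a 2.32-fold ratio, followed by nlp-71 at 1.07 ± 0.53 and nlp-43 at 0.94 ± 0.49. The limma SE draws on the spread of all genes tested and not only on that of the gene itself. The lowest was nlp-48 at -1.14 ± 0.70. The median of the 10 was 0.45, beside 0.087 for all 2222 genes. Without the aged Cy5-mutant array these 3 genes had 0.76, 0.54 and 0.38 and the median was 0.23; without the aged Cy3-mutant array they had 1.67, 1.60 and 1.51 and the median was 0.68. The adjusted p of each of the 10 was 0.9998 in limma with Benjamini-Hochberg adjustment over all 2222 genes. limma called 0 of the 2222 genes at an adjusted p under 0.05 (0% called), so that 0 of 10 is also the background. At an unadjusted p under 0.05 it called 72 genes (3.24%) and again 0 of the 10.

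**Figure D2:**
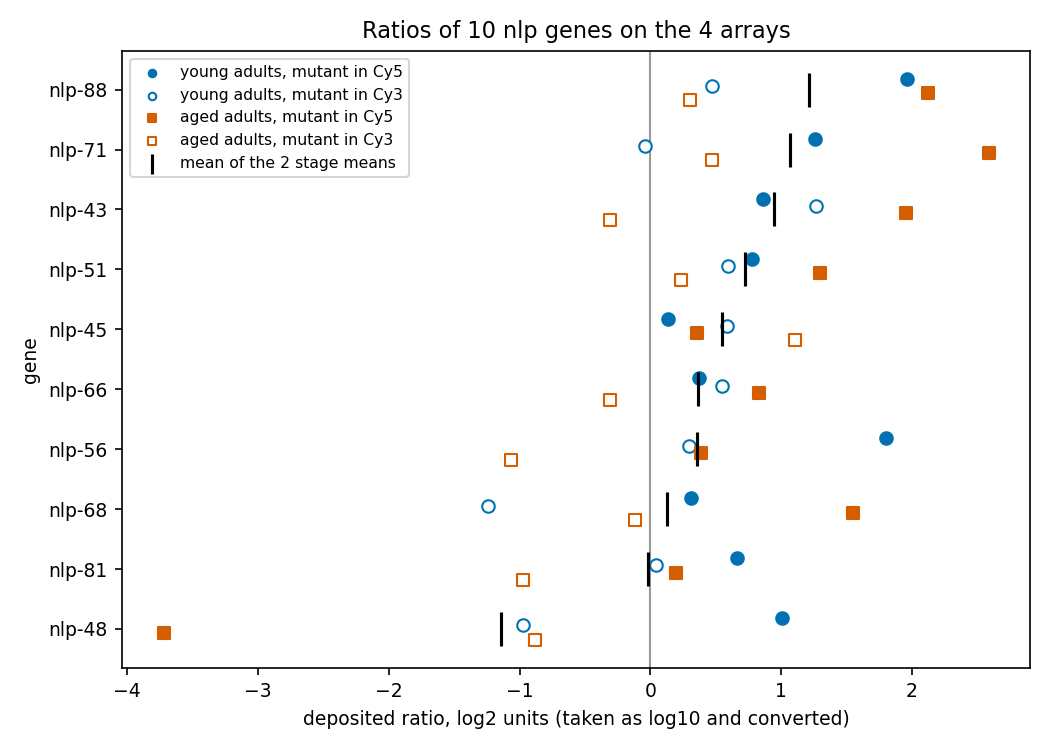
Log2 ratios of the 10 nlp genes (rows, ordered by mean) on the 4 arrays; circles are young adults and squares aged adults, filled for the Cy5-mutant and open for the Cy3-mutant array, and the black tick is the mean of the 2 stage means. nlp-88, nlp-51 and nlp-45 lie above 0 on all 4 arrays, while nlp-48 runs from 1.003 to -3.72.

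The genes nlp-45, nlp-51 and nlp-88 were positive on all 4 arrays. That is 3 of 10, where 10.9% of the genes tested were positive on all 4, and it stayed 3 after each array was centred on its median (9.68% of genes).

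The precursor gene nlp-88 (M04B2.6, chromosome IV) had log2 ratios of 1.96 on the Cy5-mutant and 0.47 on the Cy3-mutant array of young adults, and of 2.12 and 0.30 on those of aged adults; the Cy5-mutant array is also given first for the other genes. Its stage means, 1.21 in each, differed by less than any other member's, with an SD of 0.0015 over the stages. The stage means were thus close, while within each stage the Cy5-mutant array stood far above the other. For nlp-51 (T24F1.5, chromosome II) the young arrays gave 0.78 and 0.59 and the aged arrays 1.30 and 0.23. Its mean was 0.73 ± 0.49, with a stage SD of 0.054. For nlp-45 (T01B6.4, chromosome X), the gene of the exploration-restraining peptide, the young arrays gave 0.13 and 0.58 and the aged arrays 0.36 and 1.10. The mean of nlp-45 was 0.54 ± 0.49. It was the only member in which both Cy3-mutant arrays stood above both Cy5-mutant arrays. In the WBcel235 annotation nlp-45 overlaps the coding gene T01B6.1, which has a named probe of its own and had no ratio on any array.

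In nlp-71, nlp-43 and nlp-66 both stage means were positive but not every array was. The gene nlp-71 (Y73B6BL.35, chromosome IV) gave 1.26 and -0.039 on the young arrays and 2.58 and 0.47 on the aged ones. Its aged ratio of 2.58 was the highest single value among the 10. The gene nlp-43 (C45G9.13, chromosome III) gave 0.86 and 1.27 on the young arrays and 1.95 and -0.31 on the aged ones, so that 1 aged array set it above and the other below 0. The gene nlp-66 (R08B4.5, chromosome X) gave 0.38 and 0.55 on the young arrays and 0.83 and -0.30 on the aged ones, with a mean of 0.36 ± 0.49. As in nlp-43, the young arrays agreed and the aged ones had opposite signs.

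In the 4 remaining genes the stage means had opposite signs. For nlp-56 (Y57G11C.45, chromosome IV) the young arrays gave 1.80 and 0.30 and the aged arrays 0.39 and -1.06. Its stage means were 1.05 and -0.34, and the mean over both was 0.36 ± 0.57. For nlp-81 (Y67D8B.4, chromosome IV) the young arrays gave 0.66 and 0.042 and the aged arrays 0.20 and -0.97. Its mean of -0.017 ± 0.51 was the nearest to 0 of the 10. For nlp-68 (T21C12.3, chromosome III) the young arrays gave 0.31 and -1.24 and the aged arrays 1.55 and -0.12, and the mean was 0.12 ± 0.55. In each of these 3 genes at least 1 stage had orientations of opposite sign.

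The gene nlp-48 (C38C10.6, chromosome III) was the one with a mean well below 0. Its ratios on the young arrays, 1.003 and -0.97, cancelled to a stage mean of 0.017. On the aged arrays they were -3.72 and -0.88, for a stage mean of -2.30. The aged Cy5-mutant array decided the size, since without it the mean was -0.43, and without the other aged array it was -1.85. In the WBcel235 annotation nlp-48 overlaps the coding gene rgr-1, and nlp-56 likewise overlaps another coding gene. Whether these probes read the overlapping genes was not tested, because probe sequences were not used here.

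Stage by stage, 9 of the 10 genes had a positive mean in young adults (51.6% of genes tested) and 7 in aged adults (60.4%), 6 of them in both. Both stage means were positive for 25.9% of the genes tested. The medians were 0.54 in young and 0.72 in aged adults, beside 0.025 and 0.18 for all genes tested. No member had both arrays of one stage positive and both of the other negative, a pattern seen in 32.8% of genes. The array values of the stages overlapped in all 10, whereas they did not overlap in 60.8% of genes. Both comparisons also depend on the gap between the orientations of a stage, whose median was larger in the 10 in each stage. The part of this gap was not tested. With a single RNA sample per stage and genotype, the differences between the stages were not tested. Across the 10 genes the stage means correlated at 0.34 (Pearson) and 0.60 (Spearman), beside -0.13 and -0.24 across all genes tested; the points share their arrays and RNA and are not independent.

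The gap between the orientations of a stage was compared next, as a description with no test. The absolute difference had a median of 0.96 log2 units in young and 1.56 in aged adults over the 10 genes, beside 0.41 and 0.66 over all genes tested. In young adults nlp-66 at 0.17, nlp-51 at 0.19 and nlp-43 at 0.41 did not lie above the median of all genes. The orientations differed by over 1 unit in 5 of 10 in young adults (18.2% of genes) and in 9 of 10 in aged adults (34.8%), nlp-45 being the exception at 0.74. All 10 were positive on the young Cy5-mutant array (56% of genes) and 9 on the aged one (64.6%). On the Cy3-mutant arrays, 7 were positive in young adults (45.5%) and 4 in aged adults (49.2%). Both Cy5-mutant arrays stood above both Cy3-mutant arrays in 6 of 10, namely nlp-51, nlp-56, nlp-68, nlp-71, nlp-81 and nlp-88, where 21.4% of genes tested did so. After centring the arrays the count was 4 of 10 (17.3%).

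**Figure D3:**
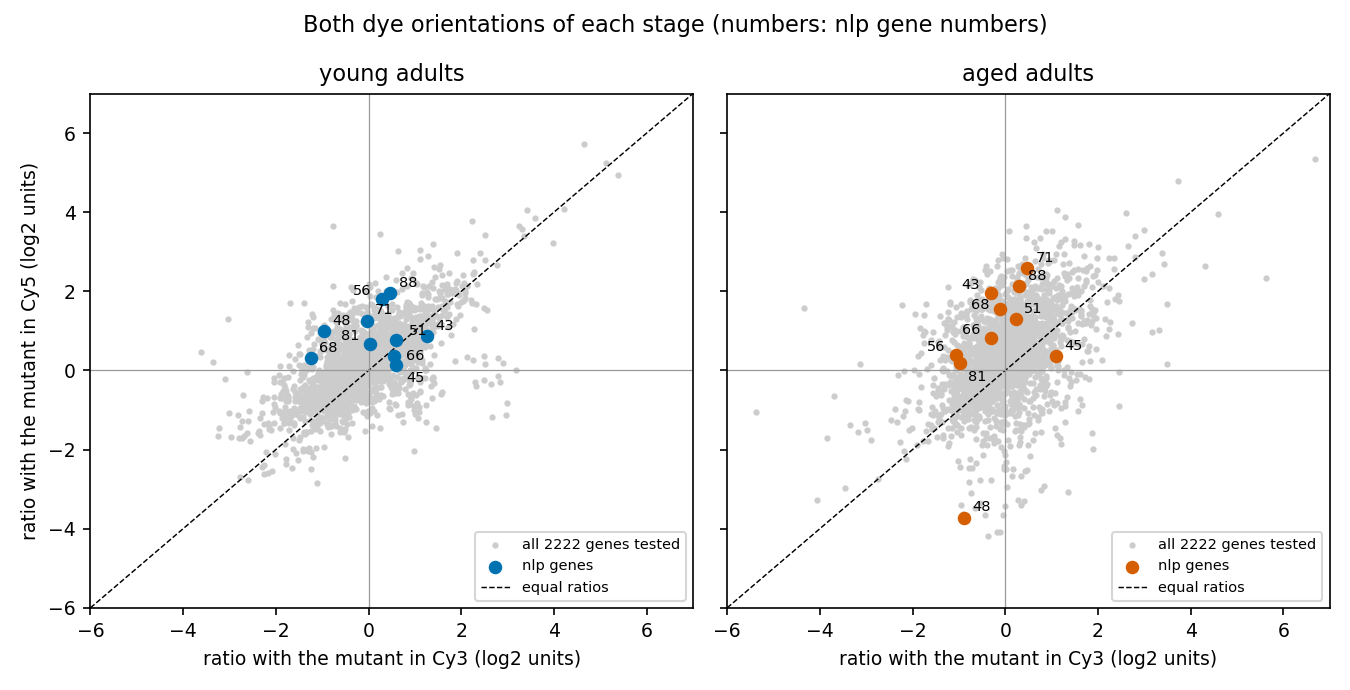
Log2 ratio on the Cy5-mutant array (vertical) against that on the Cy3-mutant array (horizontal) in young adults (left) and aged adults (right); grey points are the 2222 genes tested, coloured points the 10 nlp genes with their numbers, and the dashed line marks equal ratios. In aged adults 8 of the 10 lie above the line, with nlp-45 and nlp-48 below it.

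Under the reading that no array was turned before deposit, the Cy3-mutant arrays take the opposite sign before averaging. The ratio was then positive for 8 of the 10 (69.2% of genes tested), with a median of 0.46 beside 0.14 for all genes tested, but the order of the genes changed. The gene nlp-71 stood highest at 0.85 ± 0.19, nlp-88 at 0.83 ± 0.16, nlp-68 at 0.81 ± 0.16 and nlp-56 at 0.74 ± 0.16. In nlp-68 the stages gave 0.78 and 0.84 and in nlp-56 they gave 0.75 and 0.73, where the averages as deposited had opposite signs in young and aged adults. The gene nlp-45 turned to -0.30 ± 0.16 and nlp-81 to 0.45 ± 0.17. None passed in limma, which called 0 of 2222 genes (0% called); the lowest adjusted p among the 10 was 0.379. The 4 highest had an unadjusted p under 0.05, as did 291 of the 2222 genes (13.1%). A positive ratio in both readings was found for 7 of the 10, all but nlp-45, nlp-48 and nlp-81. The share of all genes tested that had this was not computed. Both readings combine the same arrays. Positive in both means only that the average of the Cy5-mutant arrays was positive and exceeded that of the Cy3-mutant arrays in absolute size.

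**Figure D4:**
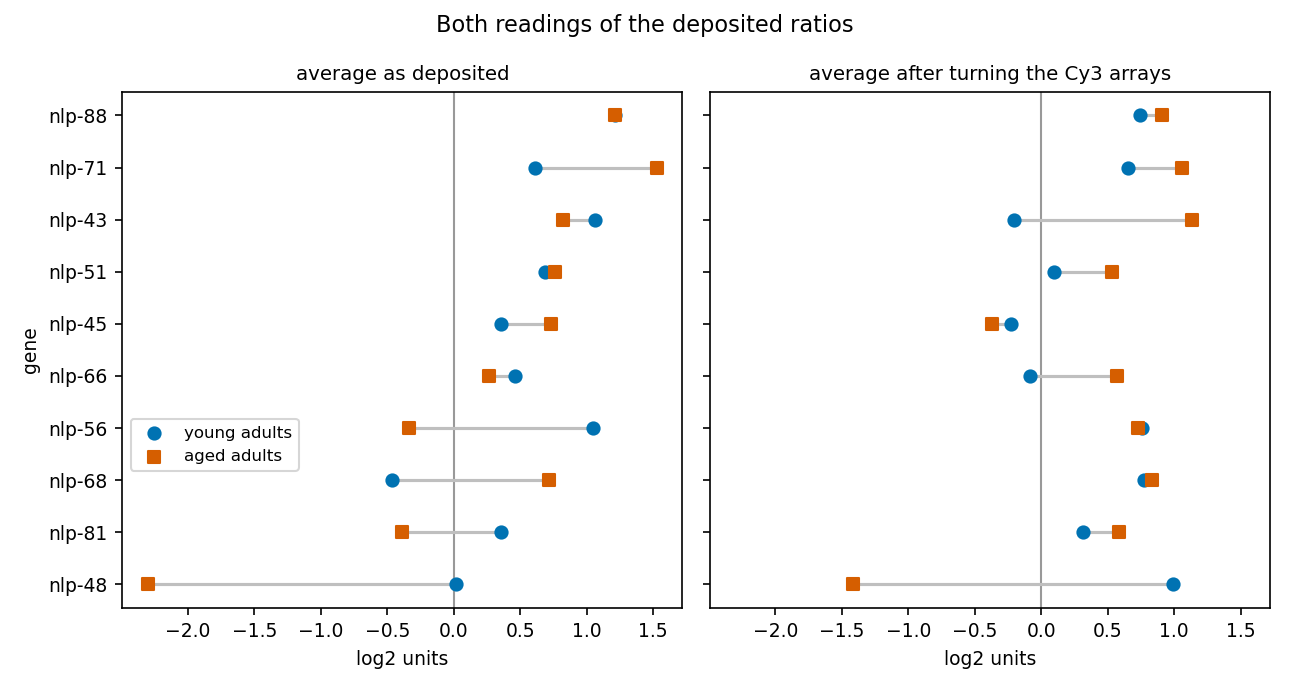
Log2 ratios of the 10 nlp genes in young adults (circles) and aged adults (squares), averaged over the orientations as deposited (left) and after turning the Cy3-mutant arrays (right). The stages of nlp-56 and nlp-68 lie on opposite sides of 0 in the left panel and together in the right one, while nlp-88 lies above 0 in both.

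The 15 other nlp genes had ratios on fewer arrays. Of their values, 6 of 6 were positive on the young Cy5-mutant array (54.1% of all probes with a ratio) and 3 of 3 on the young Cy3-mutant array (49.4%). On the aged arrays, 3 of 5 were positive on the Cy5-mutant array (54.9%) and 5 of 5 on the other (50.9%). The gene nlp-101 had 0.56 on the first young array and 0.56 and 0.49 on the aged ones. The gene nlp-79 had 1.04 and 0.60 in young adults and no ratio in aged adults. The gene nlp-59 had 0.00026 on 1 young array and 1.09 and 0.45 on the aged ones. For nlp-52 the values were 0.50 and 0.65 in young adults and 0.017 on 1 aged array, and for nlp-57 they were 0.099 on 1 young array and 0.24 and 0.53 on the aged ones. Each of these was positive wherever it was measured, the young value of nlp-59 and the aged value of nlp-52 only marginally. The negative values were -1.13 for nlp-62 and -1.296 for nlp-69, both on the aged Cy5-mutant array, and nlp-69 had 0.15 on the other. The genes nlp-64 and nlp-89 had 1 ratio each, 0.75 and 0.31, both in young adults. No ratio was present for nlp-60, nlp-61, nlp-67, nlp-90, nlp-91 and nlp-99; nlp-90 and nlp-91 are neighbours on chromosome X. Of the 25, 9 lie on chromosome X, 2 of which are among the 10.

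Few other genes of peptide signalling could be set beside them. Of other precursor genes, 2 had a named probe and 1 was tested: trh-1, which encodes a precursor of peptides like thyrotropin-releasing hormone, had 1.68 and 0.055 on the young arrays and -0.48 and -1.04 on the aged ones, for a mean of 0.054 ± 0.60. Of the list of receptors, 12 genes had a named probe and 2 were tested. The neuropeptide receptor family gene npr-37 had a mean of -0.14 ± 0.49. The gene gplb-1, which encodes a glycoprotein hormone subunit and so a ligand rather than a receptor, had 1.44 and 0.75 on the young arrays and 2.42 and 0.90 on the aged ones. Its mean was 1.38 ± 0.50, positive on all 4 arrays, with an adjusted p of 0.9998 in limma. No gene of peptide processing or dense core vesicles had a named probe, so the enzymes that mature these peptides were not analysed here.

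Markers of other tissue were almost as scarce, and their part in the nlp ratios was not tested. Of the neuron list, 3 genes were named and 1 was tested, the glutamate receptor family gene glr-9, at 0.74 ± 0.53 and positive on all 4 arrays. Of the intestine list, 3 were named and 1 was tested, the protease gene cpr-9, at 0.96 ± 0.49 and also positive on all 4. The chemoreceptor list, matched by name stem, had 31 named and 9 tested genes, with a median of 0.16 and 5 means above 0. Its largest values were -1.64 ± 0.58 for srlf-34, 0.56 ± 0.49 for srlf-3 and 0.39 ± 0.61 for srlf-1. Of the germline list 2 genes were named and both had ratios on all 4 arrays: syp-5 and syp-6, of the synaptonemal complex, had -0.15 ± 0.51 and -0.13 ± 0.49. Of 11 named sperm genes the 2 tested, spe-48 and spe-18, had -0.36 ± 0.49 and -0.17 ± 0.66. In none of these lists did a gene pass limma's test. No hypodermis or somatic gonad gene had a named probe, and the 1 muscle gene had no ratio on any array.

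By Euclidean distance over the 4 arrays, the nearest other gene tested lay 0.27 to 1.07 log2 units from each of the 10. The shortest distance was to F46C8.8 for nlp-66, at 0.27 log2 units, then Y76B12C.9 for nlp-68 at 0.28, depd-5 for nlp-81 at 0.29, R02F2.8 for nlp-51 and D1044.1 for nlp-45 at 0.30 each, and Y38F1A.8 for nlp-56 at 0.36. The nearest gene lay at 0.48 for nlp-43 (T20B3.1), 0.54 for nlp-71 (C09D4.2) and 0.59 for nlp-88 (K09E4.1). The least matched was nlp-48, whose nearest gene Y108F1.5 lay at 1.07 and was likewise low on the aged Cy5-mutant array, at -4.19. The second nearest were R12E2.6 for nlp-66, H01M10.1 for nlp-68, C46H11.2 for nlp-81, nssp-7 for nlp-51, Y53F4B.9 for nlp-45, Y69H2.10 for nlp-56, Y39B6A.5 for nlp-43, C50F4.1 for nlp-71, C50F4.8 for nlp-88 and ZK616.3 for nlp-48, at 0.27 to 1.29. These 4 points share 2 pairs of RNA samples, so likeness here is a description of the arrays.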

How the data were processed

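The deposited table holds 1 log10 ratio per probe and array, made with Agilent Feature Extraction per the submitters' processing notes; version, background correction and dye normalization: not given in the sources used. The log10 base is that program's convention and was not checked against scanner signals. The median of each deposited column was 0. Ratios of exactly 0, 43.7% to 52.2% of the 22562 probes on an array, were left out. Ratios were multiplied by 3.32 to give log2 values. The SD of the remaining ratios was 0.86 to 0.97 on 3 arrays and 1.40 on the aged Cy5-mutant array. Of the probes, 7718 had 1 gene symbol, 0 several and 14844 none; 7691 matched WBcel235 through gene identifiers, which served for names, chromosomes and neighbours.

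A gene's value on an array was the mean of its probes. The mean of both orientations was taken per stage. A limma 3.58.1 model (lmFit, eBayes, in R 4.3.3) compared these 2 means with 0. Its check on simulated data required only that a set mean be recovered. How many true changes such a test can call is not reported here. Nothing in the labels says that samples came from separate cultures. The p-values cover only the spread between 2 stages. For the SE and p, limma draws the spread of each gene towards a value pooled over all genes tested. The SE of nlp-88, 0.49 beside a stage SD of 0.0015, is thus not its own spread. The spread between the stages holds any difference between young and aged adults together with technical variation, and these cannot be told apart. A gene that was not called is therefore not shown to be unchanged in the mutant. The 10 genes and the lists were chosen with earlier results of these data known. Genes named were the nlp genes, up to 3 genes of largest ratio per list and the 2 nearest genes of each of the 10. Alternatives were centring, stage as a block, zeros kept, sign turned, single arrays left out, a filter on small ratios, probe level, a robust prior and unadjusted p.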

Additional observations from a re-analysis of the deposited data

Results flagged for a closer look

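None of the 10 nlp genes had both arrays of one stage on one side of 0 and both of the other stage on the opposite side. Among the other genes named, 6 did, with positive ratios on both young and negative ratios on both aged arrays. The difference was not tested, and 32.8% of all genes tested had one such pattern. Such counts also depend on the gap between the orientations of a stage, whose median was larger in the 10 than over all genes. Young minus aged log2 ratios were 1.63 for trh-1, 1.72 for srlf-1, 0.61 for syp-5, 2.09 for spe-18, 2.33 for ZK616.3 and 0.75 for depd-5.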

How the results depend on the processing

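None of the 10 nlp genes was called in the main test or under any of the 12 alternatives. Of 120 values of single nlp genes, 112 kept their sign and stayed uncalled, and 8 reversed. The 112 are no measure of stability, since uncalled was the main result. With stage as a block, zeros kept, the filter on small ratios, probe level, robust prior or unadjusted p, each ratio equalled the main one. Its sign could not change there. With swapped arrays turned, nlp-45 was -0.30 and nlp-81 0.45. Leaving out 1 array moved nlp-56 to between -0.021 and 0.73 (below 0 without either Cy5-mutant array, at -0.021 and -0.0066), nlp-68 to between -0.29 and 0.54 (below 0 without the same arrays, at -0.26 and -0.29) and nlp-81 to between -0.31 and 0.28 (above 0 without either Cy3-mutant array, at 0.14 and 0.28). The median of the 10 was 0.23 to 0.68 over both stages when 1 array was left out, 0.38 to 0.82 in young adults and -0.21 to 1.06 in aged adults, where the sign thus followed the orientation; the lowest was without the aged Cy5-mutant array. The cause was not tested.

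Over all genes, higher calls numbered 13 after centring, 3 with stage as a block, 1 without small ratios and 61 at an unadjusted p, against 0. Lower calls were 11 at an unadjusted p. The weight limma gave to the spread pooled over genes, in prior degrees of freedom, was 65.2 after centring and 4.47 in the main test. It was also higher with 1 array left out. What part this weight had in the added calls was not tested. Leaving out 1 array gave 9 to 16 higher and 0 to 4 lower calls, with a lone orientation taken to vary as an average of both does. With swapped arrays turned, list medians were 0.24 for intestine (1 gene, 0.96 as deposited), 0.55 for other precursors (trh-1, 0.054), 0.35 for neuron (glr-9, 0.74), 0.053 for germline (2 genes, -0.14) and -0.012 for chemoreceptors (9 genes, 0.16). Spot brightness was not used here and limits the small ratios to an unknown degree. No paired analysis was possible because each stage and genotype had a single RNA sample and GEO's labels number no replicates. The dye orientations of a stage were averaged, and each ratio already sets mutant against wildtype on its own array.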
